A study of Mus musculus with 14 samples.

Results

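Lgi2, Tenm2, Prune2, Cds1 and Acsm5 were followed in 14 heart libraries from mice that lack or carry Sqstm1 in their cardiac muscle cells, at 15 and at 2 months of age. They are 5 of the 55487 genes in the deposited count table, found by matching their symbols to Ensembl identifiers through the GENCODE M21 annotation. They were chosen by their log2 fold changes with age: their transcripts were far more abundant at 15 than at 2 months in both genotypes. Their age difference is therefore the property that chose them, and it is given here as a description with no test. The comparisons of the genotypes at each age and on average did not enter the choice and were tested. The difference between the age changes of the genotypes is made of the values that chose the genes. Its test is given with that limit. All 5 passed the filter on low counts and were among the 15528 genes tested.

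The knockout hearts came from Myh6-Cre-Sqstm1fl/fl mice, in which Cre recombinase under the Myh6 promoter removes the loxP-flanked Sqstm1 gene from cardiac muscle cells. Other cells of the heart keep Sqstm1, which encodes p62, a receptor that delivers ubiquitinated cargo to autophagosomes. The comparison hearts are labelled wild type, with no further allele given. All mice were untreated C57BL/6 males, and RNA was taken from the whole heart. There were 4 knockout and 4 wild-type hearts at 15 months, and 3 knockout and 3 wild-type hearts at 2 months. In such bulk RNA, a change in the number of cells of a type and a change in the RNA per cell cannot be told apart. The labels number the replicates but do not say whether they were handled apart, so each p-value here reflects the spread among these libraries, which may be technical.

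The 5 genes have unrelated products. Lgi2 and Tenm2 encode proteins of the cell surface and the extracellular space: Lgi2 is a secreted leucine-rich repeat protein that binds receptors of the ADAM22 family, and Tenm2 is a teneurin, an adhesion protein that binds latrophilins across synapses. Both are best known from the nervous system. Prune2 is a large protein with a BCH domain, a lipid- and GTPase-binding fold shared with the Bnip2 family. Cds1 is a CDP-diacylglycerol synthase, which turns phosphatidic acid into the precursor of phosphatidylinositol and cardiolipin. Acsm5 belongs to the mitochondrial medium-chain acyl-CoA synthetases, which couple fatty acids to coenzyme A before oxidation.

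The promoters show how different the 5 start regions are, and 4 of them are printed here: the CpG-dense start regions of Cds1 and Lgi2, and the CpG-poor ones of Acsm5 and Tenm2. Each is the RefSeq sequence of 300 bases on GRCm38.p6, from 250 bases before to 50 bases after the annotated start, read in the direction of transcription. Capitals mark matches, on either strand, to the 8 motifs searched: the GC box GGGCGG, the CRE half-site TGACGT, the E-box CACGTG, the TATA box TATAAA, the CCAAT box, the GATA motif AGATAA, the nuclear receptor half-site AGGTCA and the MEF2 core TATTTTTA.
Cds1, chr5:101764880-101765179, plus strand: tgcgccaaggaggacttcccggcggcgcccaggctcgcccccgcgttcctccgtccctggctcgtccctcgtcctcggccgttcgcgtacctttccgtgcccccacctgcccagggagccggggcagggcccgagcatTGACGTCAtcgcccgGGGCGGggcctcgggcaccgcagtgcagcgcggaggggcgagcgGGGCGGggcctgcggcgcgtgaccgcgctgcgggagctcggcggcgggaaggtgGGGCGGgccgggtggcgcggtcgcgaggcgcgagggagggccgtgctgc
Lgi2, chr5:52566257-52566556, minus strand: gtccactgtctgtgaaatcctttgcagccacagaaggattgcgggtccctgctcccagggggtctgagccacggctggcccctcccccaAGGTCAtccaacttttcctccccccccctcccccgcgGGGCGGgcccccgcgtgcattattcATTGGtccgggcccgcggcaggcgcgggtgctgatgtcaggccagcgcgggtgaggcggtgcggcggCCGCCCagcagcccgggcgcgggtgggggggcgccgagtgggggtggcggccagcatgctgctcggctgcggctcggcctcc
Acsm5, chr7:119526015-119526314, plus strand: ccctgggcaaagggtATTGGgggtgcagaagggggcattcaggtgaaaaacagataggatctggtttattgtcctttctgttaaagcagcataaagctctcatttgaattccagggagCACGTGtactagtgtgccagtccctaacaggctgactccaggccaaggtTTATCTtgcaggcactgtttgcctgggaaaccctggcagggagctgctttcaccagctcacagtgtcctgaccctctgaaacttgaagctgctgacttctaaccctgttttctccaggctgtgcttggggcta
Tenm2, chr11:36944192-36944491, minus strand: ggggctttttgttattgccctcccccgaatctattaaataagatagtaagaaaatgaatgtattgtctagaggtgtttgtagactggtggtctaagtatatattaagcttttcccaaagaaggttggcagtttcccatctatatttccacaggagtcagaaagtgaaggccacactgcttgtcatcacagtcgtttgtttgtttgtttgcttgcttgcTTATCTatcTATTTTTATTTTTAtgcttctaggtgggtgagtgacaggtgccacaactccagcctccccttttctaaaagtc

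The Cds1 window was 79% G or C and held 46 CpG dinucleotides, and the Lgi2 window was 73.3% G or C with 27. The Prune2 window, not printed, resembled them with 72.7% G or C and 28 CpG dinucleotides. The Acsm5 window was 51.3% G or C with 1 CpG, and the Tenm2 window 40% with 2. Over 32851 mouse promoters of the same length the median was 52.7% G or C and 7 CpG dinucleotides, so Cds1, Lgi2 and Prune2 lay above the typical promoter and Acsm5 and Tenm2 near or below it. No motif was present in all 5 windows. The Cds1 window held 3 GC boxes and a pair of CRE half-sites, 1 on each strand, that overlap in the palindrome TGACGTCA. The Lgi2 and Prune2 windows held GC boxes too. A GC box stood in 35.7% of all promoters and a CRE half-site in 7.51%. The Acsm5 window held an E-box, present in 7.15% of promoters. The Tenm2 window held a pair of overlapping MEF2 cores, a motif present in 2.72% of promoters. A GATA motif, present in 11.2% of promoters, was found in the Acsm5 and Tenm2 windows. The CCAAT box, present in 37.4% of promoters, was found in Lgi2, Prune2 and Acsm5. The nuclear receptor half-site, present in 16.3%, was found in Lgi2. The TATA box, present in 13.6%, was found in none of the 5. These are matches of letters and do not show binding. The RefSeq start of Tenm2 lies 291723 bases inside the outer boundary of the gene in GENCODE M21, and that of Acsm5 lies 6802 bases inside it, so other start sites of both genes are not covered by these windows.

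Library totals ranged from 20218992 to 30404416 counts, of which mitochondrially encoded genes took 27.5% to 46.0%. Levels are given as CPM, counts scaled to the library total after TMM normalization. Sqstm1 itself lay between 14.6 and 37.0 CPM in the 7 knockout libraries and between 139 and 238 CPM in the 7 wild-type libraries, so every library matched its label. The 8 cardiac muscle markers summed to 38316 to 43470 CPM in knockout and 38070 to 45878 CPM in wild-type hearts at 15 months, and to 37701 to 44874 CPM in knockout and 35945 to 41187 CPM in wild-type hearts at 2 months, the labelled tissue. Myl7, an atrial myosin light chain, reached 638 CPM in wild-type replicate 1 at 2 months and 58.1 CPM in knockout replicate 1 at 15 months. It stood at 39.7, 15.0 and 26.9 CPM in wild-type replicates 1, 2 and 4 at 15 months, and below 1 CPM in the 9 remaining libraries. At 15 months it was thus raised in more wild-type than knockout libraries. Both libraries numbered 3 at 2 months stood apart in the clock-controlled gene Ciart, with 16.3 CPM in the knockout and 20.2 CPM in the wild-type library, against 0.657 to 1.20 CPM in the other 2-month libraries and 7.07 to 13.6 CPM at 15 months. At 2 months the 5 genes lay in those libraries within the range of the other 2-month libraries of both genotypes together. Within young wild-type hearts, replicate 3 was the lowest for Cds1 and Acsm5 and the highest for Lgi2 and Prune2. Within young knockout hearts, replicate 3 was the highest for Cds1. Without the libraries numbered 3, or with them alone at 2 months, all 5 genes were higher at 15 months in both genotypes. That was fixed by the choice of the genes, since every old heart lay above every young one.

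Lgi2 was barely present in young hearts and measurable in old ones. It stood at 2.37, 3.48, 2.65 and 2.02 CPM in knockout replicates 1 to 4 at 15 months and at 6.20, 3.34, 5.65 and 3.94 CPM in wild-type replicates 1 to 4. At 2 months it stood at 1.06, 0.355 and 0.809 CPM in knockout replicates 1 to 3 and at 0.698, 0.179 and 0.812 CPM in wild-type replicates 1 to 3. Every old heart was above every young one, and the 3 highest old hearts were wild type. The log2 fold change of 15 over 2 months was 1.83 (SE 0.42) in knockout hearts, 3.56-fold, and 3.02 (SE 0.43) in wild-type hearts, 8.10-fold. Of the 15528 genes tested, the wild-type difference ranked 24 and the knockout difference 172.

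The gene lies on chromosome 5 from 52533517 to 52566462 on the minus strand (ENSMUSG00000039252, GRCm38). Its paralogs had much smaller age differences, and none passed the test. The log2 fold change with age was −0.01 in knockout and 0.02 in wild-type hearts for Lgi1, an epilepsy gene of neurons, 0.50 and −0.51 for Lgi3, and 0.16 and −0.01 for Lgi4, a Schwann cell signal. As a share of the summed level per kilobase of the 4 Lgi genes, Lgi2 made up 22.8% ± 2.82 (SD, n = 4) in knockout and 38.8% ± 7.19 (n = 4) in wild-type hearts at 15 months. In young hearts it made up 9.13% ± 4.86 (n = 3) in knockout and 6.40% ± 4.02 (n = 3) in wild-type hearts. Lgi1 was the Lgi gene with the highest mean level per kilobase in knockout hearts at both ages, and Lgi2 was the highest in old wild-type hearts.

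**Figure D1:**
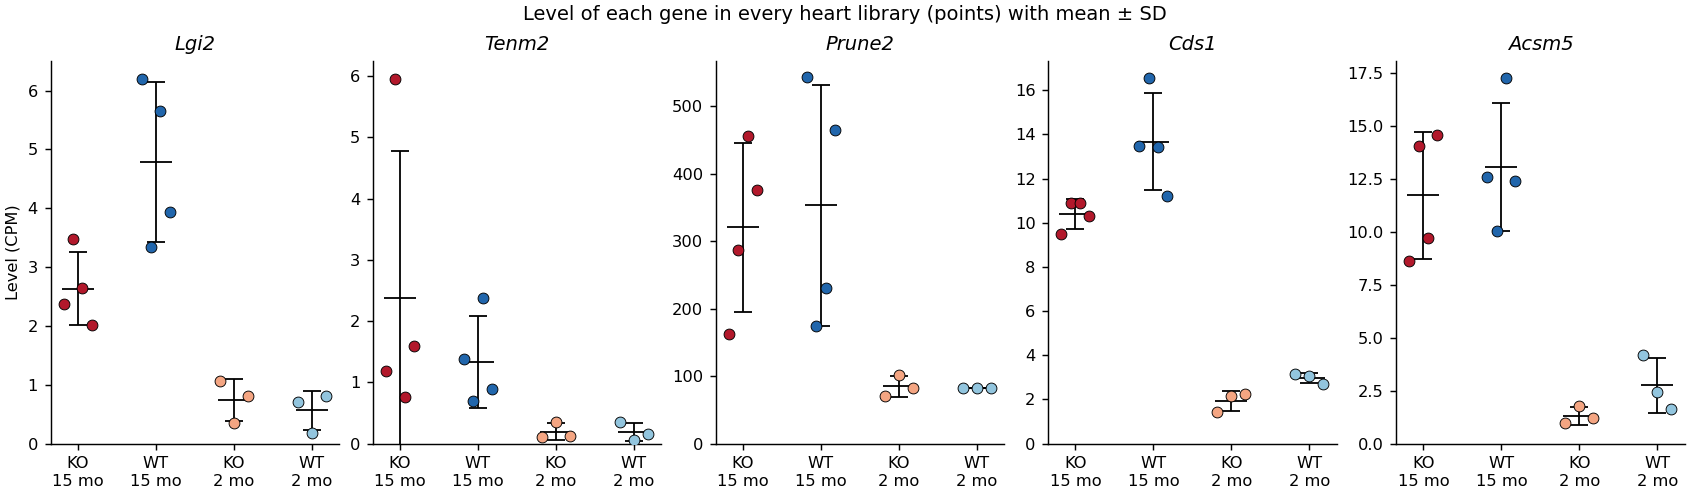
Level of each of the 5 genes in CPM (vertical axis, linear, from 0) in every library, with points for libraries and lines for the mean ± SD of knockout (KO) and wild-type (WT) hearts at 15 and 2 months. All 15-month points lie above all 2-month points in each panel. The SD bar of Tenm2 in old knockout hearts runs below 0 and is drawn to the axis, since its SD of 2.41 CPM exceeds its mean of 2.37 CPM.

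Among the other Lgi genes and the receptors and partners of the Lgi proteins, 12 of 12 listed genes were measured. Of these, 10 had a log2 fold change above 0 in knockout hearts and 7 in wild-type hearts, with medians of 0.45 and 0.07, against medians of 0.01 and −0.02 over all genes tested. In knockout hearts 0 of 12 passed the test (edgeR quasi-likelihood, Benjamini-Hochberg adjusted p below 0.05), against 1.07% of all genes higher and 1.18% lower, 2.25% in all. The count was 2 at an unadjusted p below 0.05 (26.7% of all genes in knockout and 23.8% in wild-type hearts), 2 by DESeq2 (10.4% of all genes), 0 by limma voom (3.12%), and 2 by edgeR without knockout replicate 1 at 15 months (22.7%). In wild-type hearts 1 of 12 passed, against 0.612% of all genes higher and 0.425% lower, 1.04% in all: Adam22, the ADAM22 receptor itself, rose with a log2 fold change of 0.89 (SE 0.18, adjusted p = 0.0374 by edgeR). Its level was 25.01 ± 6.73 CPM (SD, n = 4) in wild-type hearts at 15 months and 13.5 ± 0.814 CPM (n = 3) at 2 months. In knockout hearts Adam22 had a log2 fold change of 0.70 (SE 0.18, adjusted p = 0.0581), and the age difference between genotypes, −0.19 (SE 0.26), did not pass. The wild-type call lay near the threshold: without wild-type replicate 1 at 15 months the log2 fold change was 0.70 and the adjusted p 0.0998, and without wild-type replicate 2 at 2 months they were 0.86 and 0.166. It was lost too without wild-type replicate 3 at 2 months, wild-type replicate 2 or 4 at 15 months, any knockout library at 2 months or knockout replicate 4 at 15 months, with log2 fold changes of 0.88 to 0.92 and adjusted p of 0.0509 to 0.110. Adam23, another receptor of the same family, had values of 1.64 (SE 0.41, adjusted p = 0.0528) in knockout and 0.63 (SE 0.40) in wild-type hearts.

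Between genotypes at 15 months, the knockout mean of Lgi2 was 2.63 ± 0.621 CPM and the wild-type mean 4.78 ± 1.36 CPM (SD, n = 4 each). The groups overlapped, since knockout replicate 2 at 3.48 CPM was above wild-type replicate 2 at 3.34 CPM. The log2 fold change of knockout over wild type was −0.86 (SE 0.34), with an unadjusted 95% interval of −1.59 to −0.13. It did not pass the test (adjusted p = 0.999, edgeR). At 2 months the value was 0.32 (SE 0.48). The difference between the age changes in knockout and wild-type hearts was −1.18 (SE 0.59, interval −2.44 to 0.07) and also failed the test. It ranked 183 from the bottom among the 15528 genes.

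Tenm2 was the lowest of the 5 genes and the least precisely measured. It stood at 1.19, 5.94, 0.753 and 1.599 CPM in knockout replicates 1 to 4 at 15 months and at 1.38, 0.692, 2.37 and 0.885 CPM in wild-type replicates 1 to 4. At 2 months it stood at 0.101, 0.355 and 0.121 CPM in knockout replicates and at 0.349, 0.0597 and 0.155 CPM in wild-type replicates. The young hearts rest on a handful of reads, with 13 counts summed over 3 knockout libraries and 14 over 3 wild-type libraries, against 256 counts in 4 knockout and 154 in 4 wild-type libraries at 15 months. Every old heart was nevertheless above every young one. With age the log2 fold change was 3.59 (SE 0.83) in knockout hearts and 2.72 (SE 0.82) in wild-type hearts.

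Knockout replicate 2 decided part of the knockout value. It stood at 5.94 CPM, against 0.753 to 1.599 CPM in the other old knockout hearts, and it was also the knockout library with the most Sqstm1 at 15 months, 37.0 CPM against 14.6 to 17.6 CPM in the other knockout libraries of that age. Without it the age difference in knockout hearts was 2.57, and the knockout over wild-type value at 15 months was −0.19 in place of 0.83 (SE 0.60, interval −0.45 to 2.11, adjusted p = 0.999 by edgeR with all libraries). At 2 months the knockout over wild-type value was −0.04 (SE 0.99). The sign of the genotype difference in Tenm2 is therefore not settled at this depth.

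Tenm2 spans chromosome 11 from 36006656 to 37235964 on the minus strand (ENSMUSG00000049336), 1229309 bases in all, and no tested gene lay within 100 kb of it. In share of the summed per-kilobase level of the 4 teneurins it made up 22.4% ± 13.9 (SD, n = 4) in knockout and 16.5% ± 4.49 (n = 4) in wild-type hearts at 15 months. At 2 months the shares were 5.47% ± 3.24 (n = 3) in knockout and 3.49% ± 2.01 (n = 3) in wild-type hearts. Tenm3, the teneurin with the highest mean level in all 4 groups, had log2 fold changes with age of 1.41 (SE 0.57) in knockout and 0.19 (SE 0.54) in wild-type hearts. Those of Tenm4 were 0.84 (SE 0.33) and 0.77 (SE 0.34). Tenm1 had 41 counts over all libraries and was not tested.

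Tenm3, Tenm4 and the partners of the teneurins (latrophilins, Flrt proteins and netrin receptors) mostly had values above 0 but did not pass the test. Of 13 listed genes, Tenm1 included, 11 were measured, 10 with values above 0 in knockout and 7 in wild-type hearts, and the medians were 0.84 and 0.19. By edgeR 0 of 11 passed in either genotype, against 2.25% of all genes in knockout and 1.04% in wild-type hearts. At an unadjusted p below 0.05 there were 5 in knockout and 4 in wild-type hearts, against 26.7% and 23.8% of all genes. DESeq2 called 2 and 0 (10.4% and 7.08% of all genes), and limma voom called 0 and 0 (3.12% and 0.979%). Without knockout replicate 1 at 15 months edgeR called 3 in knockout hearts, and without wild-type replicate 1 at 2 months it called 2, against 22.7% and 3.95% of all genes. The highest values among the partners were those of the netrin receptors Unc5a, with 1.36 (SE 0.38, adjusted p = 0.0659 by edgeR) in knockout and 1.05 (SE 0.38) in wild-type hearts, and Unc5b, with 1.19 (SE 0.33, adjusted p = 0.0650) and 0.81 (SE 0.33). The latrophilins Adgrl1, Adgrl2 and Adgrl3, the receptors that Tenm2 binds, had values of 0.08, 0.46 and 0.13 in knockout and 0.21, 0.44 and −0.08 in wild-type hearts.

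Prune2 was the most abundant of the 5 genes and the one whose old hearts differed most among themselves in absolute level. It stood at 162, 287, 456 and 376 CPM in knockout replicates 1 to 4 at 15 months and at 543, 174, 231 and 465 CPM in wild-type replicates 1 to 4. The young hearts stood at 71.0, 101 and 82.6 CPM in knockout replicates and at 82.7, 82.0 and 82.9 CPM in wild-type replicates. Young wild-type hearts were almost identical, while old hearts spread 2.80-fold in the knockout and 3.13-fold in the wild type, without reaching down to the young ones. With age it differed by 1.92 (log2, SE 0.39) in knockout hearts, 3.77-fold, and 2.10 (SE 0.39) in wild-type hearts, 4.28-fold.

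The spread of Prune2 went in part with a property of the libraries. For each library the length slope was computed, the slope of its log2 CPM, relative to the mean of all libraries, against log2 exon length over all genes tested. A positive slope means that long transcripts have relatively more counts. All 6 slopes at 2 months were negative, from −0.177 to −0.0106. At 15 months 6 of 8 were positive and reached 0.235, and the negative ones were −0.0918 in knockout replicate 1 and −0.0743 in wild-type replicate 2. These were also the old hearts with the lowest Prune2, 162 CPM in the knockout and 174 CPM in the wild-type library. Among the old hearts with positive slopes the order did not hold throughout. Wild-type replicate 3, with a slope of 0.101, had 231 CPM, and wild-type replicate 4, with a slope of 0.047, had 465 CPM. Prune2 has 20297 bases of annotated exon, and 99 tested genes are longer. Its deviations from the group means had a Pearson correlation of 0.71 with those of the length slope over 14 libraries (Spearman 0.65). The Pearson value was 0.49 without the libraries whose slope deviations from the group means lay farthest from the median deviation. With the length slope as a covariate, the log2 fold change with age was 1.05 in knockout and 1.41 in wild-type hearts. What part of the age difference of Prune2 goes with transcript length was not tested further, because the slope itself differs between the ages.

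**Figure D2:**
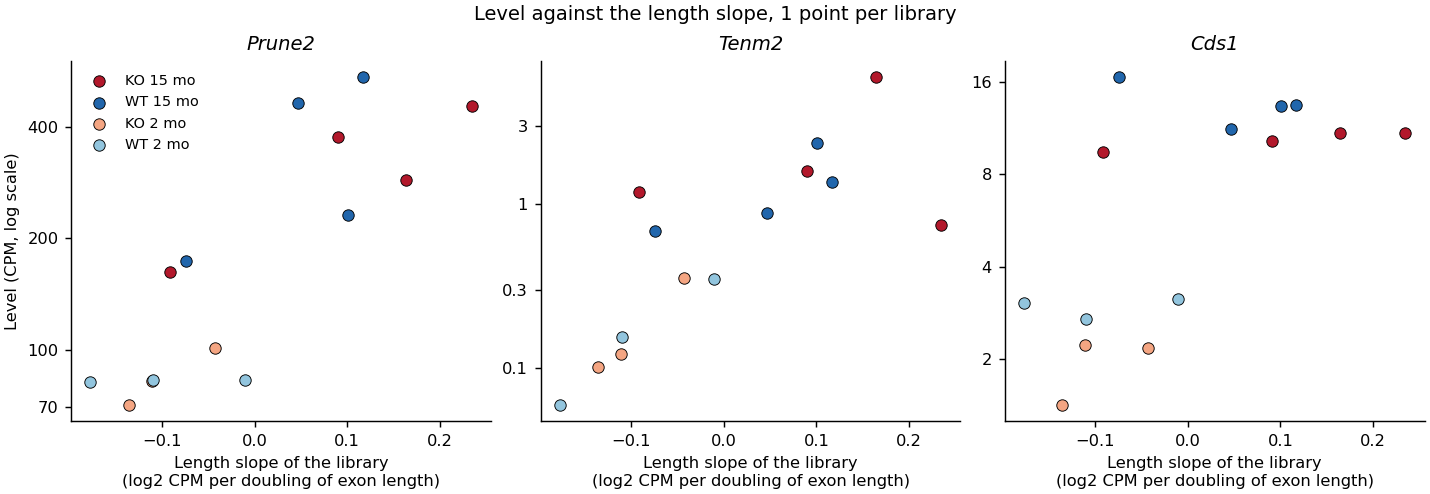
Level in CPM (vertical axis, log scale) of Prune2, Tenm2 and Cds1 against the length slope of the library (horizontal axis, log2 CPM per doubling of exon length), with 1 point per library colored by genotype and age. Old hearts with a negative slope have the lowest Prune2 of their age, 162 and 174 CPM, while the level of Cds1 in old hearts has no such order.

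The length slope bore differently on the others. With it as a covariate, the age difference in knockout and wild-type hearts was 1.43 and 2.73 for Lgi2, 2.45 and 1.91 for Tenm2, 2.38 and 2.18 for Cds1, and 2.69 and 1.91 for Acsm5. Cds1 moved least. It has 3939 bases of exon and Acsm5 has 3799, both near the median of 4113.5 bases over the genes tested. The Pearson correlation of the deviations with the slope over 14 libraries was 0.14 for Cds1, 0.34 for Lgi2, 0.45 for Tenm2 and 0.53 for Acsm5. Without the 2 libraries whose slope deviations lay farthest from the median deviation it was −0.03 for Cds1, 0.44 for Lgi2, 0.84 for Tenm2 and 0.68 for Acsm5. The order of the genes, Prune2 included, thus depends on those libraries.

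Prune2 lies on chromosome 19 from 16956118 to 17223932 on the plus strand (ENSMUSG00000039126), with no tested gene within 100 kb. Its short relative Prune1, a phosphodiesterase, had age differences of 0.27 (SE 0.14) in knockout and 0.44 (SE 0.15) in wild-type hearts, and Bnip2 had −0.24 (SE 0.16) and −0.17 (SE 0.16). Of 6 listed BCH-domain and Prune genes, 4 were measured and 0 passed in either genotype by edgeR, DESeq2 or limma voom. At an unadjusted p below 0.05 there were 0 in knockout and 1 in wild-type hearts, Prune1, against 26.7% and 23.8% of all genes. Without knockout replicate 1 at 15 months edgeR called 1 in knockout hearts (22.7% of all genes). Per kilobase of exon, Prune2 made up 64.6% ± 7.25 (SD, n = 4) of the Prune1 and Prune2 level in knockout and 66.9% ± 10.5 (n = 4) in wild-type hearts at 15 months. In young hearts it made up 38.3% ± 2.83 (n = 3) in knockout and 42.5% ± 3.09 (n = 3) in wild-type hearts. Prune2 was thus above Prune1 in every old heart and below it in every young one.

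Knockout and wild-type hearts did not differ detectably in Prune2. Knockout over wild type was −0.14 (log2, SE 0.34, interval −0.86 to 0.58) at 15 months, 0.04 (SE 0.39, interval −0.79 to 0.88) at 2 months. The average over the ages was −0.05 (SE 0.26, interval −0.60 to 0.50). None passed the edgeR test, and the intervals leave room for a difference in either direction.

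Cds1 had the smallest standard error of the 5 genes in every comparison and the smallest relative spread among old hearts. It stood at 9.49, 10.9, 10.9 and 10.3 CPM in knockout replicates 1 to 4 at 15 months and at 13.5, 16.6, 13.4 and 11.2 CPM in wild-type replicates 1 to 4. The young hearts stood at 1.41, 2.17 and 2.22 CPM in knockout replicates and at 3.14, 3.04 and 2.71 CPM in wild-type replicates. The 4 groups formed an order with no overlap between neighbours: old wild type, old knockout, young wild type and young knockout. The log2 fold change with age was 2.42 (SE 0.19) in knockout hearts, 5.33-fold, and 2.20 (SE 0.18) in wild-type hearts, 4.61-fold.

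The knockout hearts had less Cds1 than the wild-type hearts at both ages, but the difference did not pass the test across all genes. At 15 months the knockout mean was 10.4 ± 0.661 CPM and the wild-type mean 13.7 ± 2.20 CPM (SD, n = 4 each). At 2 months the knockout mean was 1.94 ± 0.453 CPM and the wild-type mean 2.96 ± 0.229 CPM (SD, n = 3 each). Knockout over wild type was −0.39 (log2, SE 0.15, interval −0.72 to −0.07) at 15 months and −0.60 (SE 0.20, interval −1.03 to −0.18) at 2 months. Averaged over both ages it was −0.50 (SE 0.13, interval −0.77 to −0.23), and its p-value ranked 14 among the 15528 genes (adjusted p = 0.999, edgeR). The genotypes did not overlap at 15 months, as in 1.23% of all genes with knockout lower, nor at 2 months, as in 3.72%. In all, 11 genes, 0.0708% of those tested, were lower in every knockout heart than in every wild-type heart at both ages, Sqstm1 and Cds1 among them. With groups of 4 and 3 hearts some genes separate in this way by chance. Random labels alone would be expected to separate shares at least as large as those above. The pattern is therefore not read as a result about Cds1. Cds1 was looked at in this way after its values were seen. The age changes did not differ detectably between the genotypes, with a difference of 0.21 (SE 0.25, interval −0.32 to 0.74).

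**Figure D3:**
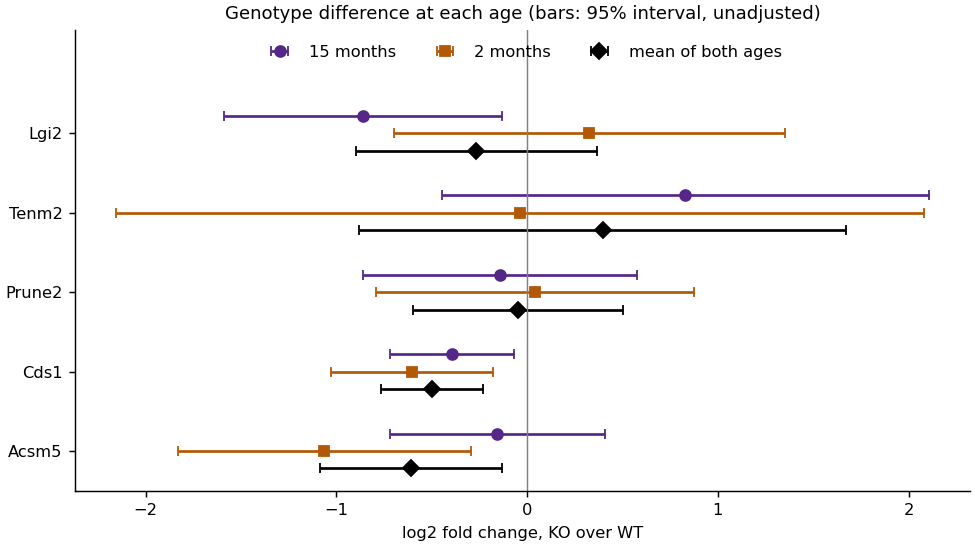
Log2 fold change of knockout over wild type (horizontal axis) for each of the 5 genes at each age and as the mean of the ages, with bars for the unadjusted 95% interval from edgeR. For Cds1 all 3 intervals lie below 0, while none of the 5 genes passed the test after adjustment over all genes.

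Cds2, the main CDP-diacylglycerol synthase of these hearts, had age differences of 0.58 (SE 0.22) in knockout and 0.51 (SE 0.22) in wild-type hearts, which did not pass. Per kilobase of exon, Cds1 made up 16.4% ± 3.55 (SD, n = 4) of the summed Cds1 and Cds2 level in knockout and 18.4% ± 3.07 (n = 4) in wild-type hearts at 15 months. At 2 months its share was 4.89% ± 0.851 (n = 3) in knockout and 6.73% ± 1.76 (n = 3) in wild-type hearts. Cds2 thus stayed the more abundant transcript in every group.

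The wider pathway of phosphatidic acid, CDP-diacylglycerol and cardiolipin did not follow Cds1. Of 35 listed genes besides Cds1, 34 were measured, 18 with values above 0 in knockout and 21 in wild-type hearts, with medians of 0.04 and 0.08. By edgeR 0 of 34 passed in either genotype, against 2.25% of all genes in knockout and 1.04% in wild-type hearts. At an unadjusted p below 0.05 there were 9 in knockout and 6 in wild-type hearts, against 26.7% and 23.8% of all genes. DESeq2 called 2 and 0 (10.4% and 7.08% of all genes), and limma voom called 1 and 0 (3.12% and 0.979%). Without knockout replicate 1 at 15 months 10 of the 34 passed in knockout hearts. That library had the lowest length slope of its age and the highest share of mitochondrially encoded counts of all libraries, 46.0%. The number of all genes that passed moved likewise, to 3524 (22.7%) without that library, against 349 with it. Enzymes beside Cds1 in the pathway include Gpam, which makes the lysophosphatidic acid upstream, with 0.98 (SE 0.30) in knockout and 0.74 (SE 0.30) in wild-type hearts. Downstream, the cardiolipin pathway phosphatase Ptpmt1 had −1.05 (SE 0.37) and −0.996 (SE 0.37), and the cardiolipin synthase Crls1 had −0.25 (SE 0.26) and −0.43 (SE 0.26). None of these passed.

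Cds1 lies on chromosome 5 from 101765130 to 101823858 on the plus strand (ENSMUSG00000029330). Its nearest tested neighbour, Wdfy3, an autophagy adaptor gene 9098 bases away, had age differences of 0.49 in knockout and 0.39 in wild-type hearts, and 9430085M18Rik had 0.15 and −0.19. Near Lgi2, the tested neighbours Sepsecs and Ccdc149 had −0.15 and 0.27 in knockout and 0.01 and 0.32 in wild-type hearts. None of these neighbours passed in either genotype. Reads of annotated genes that overlap the 5 loci summed to at most 15 counts for any such gene, against 437 to 86502 counts for the 5 genes over all libraries.

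Acsm5 was low but present in young knockout hearts and higher in all old ones. It stood at 8.63, 14.05, 9.69 and 14.6 CPM in knockout replicates 1 to 4 at 15 months and at 12.6, 10.1, 17.2 and 12.4 CPM in wild-type replicates 1 to 4. At 2 months it stood at 0.960, 1.77 and 1.21 CPM in knockout replicates and at 4.19, 2.45 and 1.62 CPM in wild-type replicates. Old hearts of both genotypes overlapped, while the young knockout hearts lay at the low end, with knockout replicate 2 above wild-type replicate 3. From these, the age difference was 3.15 (log2, SE 0.34) in knockout hearts, 8.86-fold, and 2.24 (SE 0.32) in wild-type hearts, 4.73-fold.

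None of the genotype differences in Acsm5 passed the test. Knockout over wild type was −0.16 (SE 0.26, interval −0.72 to 0.41) at 15 months and −1.06 (SE 0.36, interval −1.83 to −0.29, adjusted p = 0.9997 by edgeR) at 2 months. The difference between the age changes in knockout and wild-type hearts was 0.91 (SE 0.45, interval −0.05 to 1.86). The young difference leaned on wild-type replicate 1, the heart with 4.19 CPM and with the high Myl7: without it the age difference in wild-type hearts was 2.703 and the 2-month genotype difference −0.60.

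Acsm5 lies on chromosome 7 from 119519463 to 119545551 on the plus strand (ENSMUSG00000030972), in a cluster with other Acsm genes. It was practically the sole gene of its family in these hearts. Acsm1, Acsm2 and Acsm4 had 0 counts in all 14 libraries, which allows up to 0.00861 CPM by counting error, and Acsm3 had 10 counts in 3 libraries. The other acyl-CoA synthetases behaved less alike. Of 23 listed genes 14 were measured, 12 with values above 0 in knockout and 8 in wild-type hearts, with medians of 0.40 and 0.18. At an unadjusted p below 0.05 there were 5 in knockout and 7 in wild-type hearts, against 26.7% and 23.8% of all genes. In knockout hearts 1 of 14 passed, against 2.25% of all genes: Acsl6, a long-chain acyl-CoA synthetase known from brain and muscle, which rose with a log2 fold change of 1.37 (SE 0.24, adjusted p = 0.0114 by edgeR). In wild-type hearts Acsl6 had 0.87 (SE 0.23, adjusted p = 0.0790). In wild-type hearts 1 of 14 passed, against 1.04% of all genes: Acss3, a mitochondrial short-chain synthetase, which fell with a log2 fold change of −1.12 (SE 0.21, adjusted p = 0.0238), against −0.42 (SE 0.22) in knockout hearts.

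Both calls depended on individual libraries, and without knockout replicate 1 at 15 months 5 of the 14 passed in knockout and 3 in wild-type hearts, against 22.7% and 5.12% of all genes. Acsl6 lost its call without knockout replicate 1, 2 or 3 at 2 months, with log2 fold changes of 1.43, 1.36 and 1.32 (adjusted p = 0.0573, 0.0580 and 0.0699). Acss3 lost its call without wild-type replicate 2 at 2 months or wild-type replicate 1 or 3 at 15 months, with −1.17, −1.05 and −1.09 (adjusted p = 0.0790, 0.0980 and 0.0642). Acsl1, the most abundant long-chain synthetase of the heart, had 0.72 (SE 0.27) in knockout and 0.62 (SE 0.27) in wild-type hearts and did not pass. Between genotypes, 0 of the 75 measured genes on the 5 pathway lists passed at either age, on average or in the difference between the age changes, by edgeR, DESeq2 or limma voom. At an unadjusted p below 0.05 there were 5 at 15 months, 7 at 2 months, 7 on average and 6 in the difference, against 3.97%, 3.18%, 3.26% and 3.72% of all genes.

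**Figure D4:**
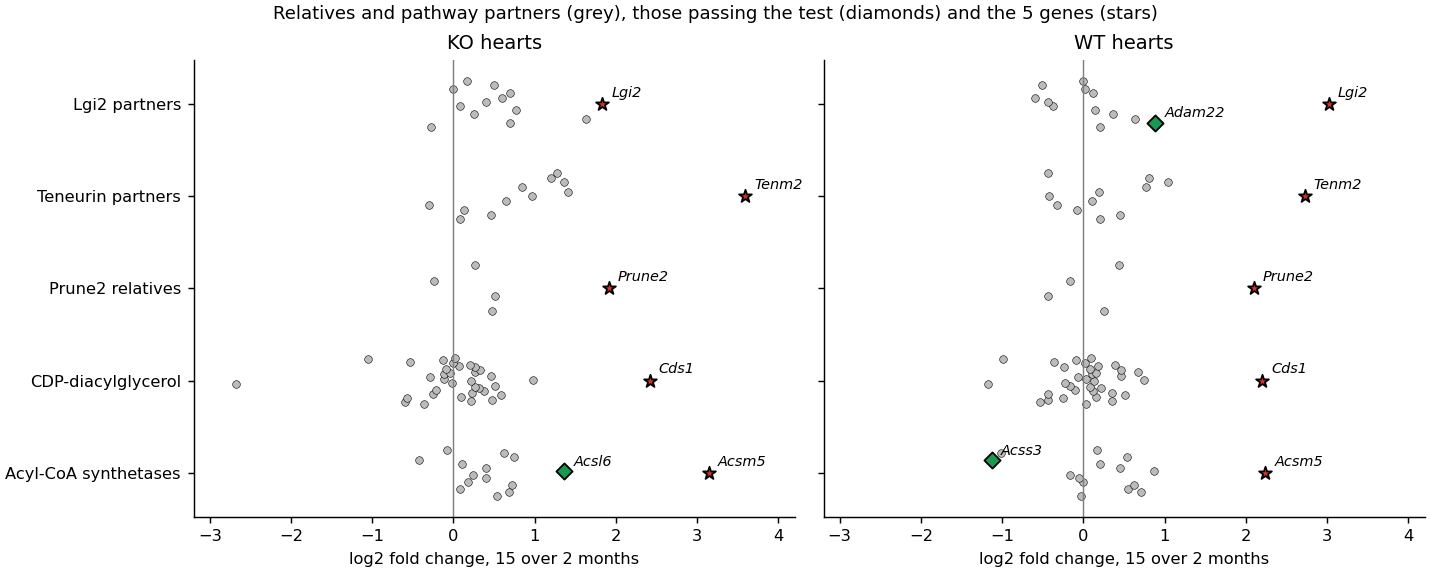
Log2 fold change of 15 over 2 months (horizontal axis) in knockout and wild-type hearts for the other genes on 5 lists of relatives and pathway partners (grey points), those that passed the edgeR test (diamonds) and the 5 genes themselves (stars). Each star lies to the right of every other gene of its list in both genotypes, a position for which the 5 genes were chosen.

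Set side by side, the 5 genes were at the far end of the age differences in both genotypes. Their smallest values were 1.83 in knockout hearts, for Lgi2, and 2.10 in wild-type hearts, for Prune2, and 46 genes, of which 36 code for protein, were at or above both. Of these 36, 16 had a mean level of at least 1 CPM. The 5 genes did not overlap between the ages in either genotype, as was the case, with higher values at 15 months, for 8.83% of all genes in knockout hearts, 8.6% in wild-type hearts and 2.68% in both. That count follows from the choice and is not a result about them.

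**Figure D5:**
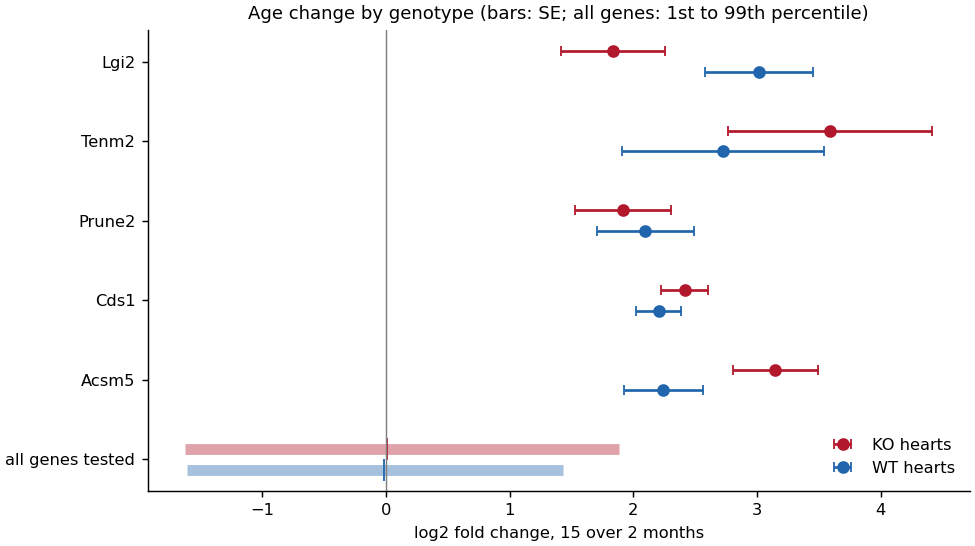
Log2 fold change of 15 over 2 months (horizontal axis) in knockout and wild-type hearts for the 5 genes, with bars for the SE from edgeR, and the range from percentile 1 to percentile 99 of all genes tested at the bottom. Knockout and wild-type values of Cds1 and Prune2 lie close together, and the knockout value is the lower for Lgi2 and the higher for Acsm5.

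Per kilobase of annotated exon, the order of levels was Prune2, Acsm5, Cds1, Lgi2 and Tenm2 in old knockout hearts, with 15.8, 3.09, 2.64, 0.403 and 0.207 CPM per kilobase. In old wild-type hearts the values in the same order were 17.4, 3.44, 3.47, 0.733 and 0.116 CPM per kilobase. In young knockout hearts they were 4.18, 0.346, 0.492, 0.114 and 0.0168, and in young wild-type hearts 4.07, 0.725, 0.752, 0.0862 and 0.0164 CPM per kilobase. The libraries of Acsm5 and Cds1 overlapped in all 4 groups, so these neighbours were not ranked. Those of Lgi2 and Tenm2 overlapped in old knockout and young wild-type hearts. The other neighbours in the order did not overlap in any group.

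In none of the genotype comparisons did any of the 5 genes pass the test. At 15 months, at 2 months and on average 0 of 5 passed, against 0.00644% of all genes, which is Sqstm1 alone. In the difference between the age changes 0 of 5 passed, as did 0 of all genes. That difference is made of the values that chose the 5 genes. At an unadjusted p below 0.05 there were 2 at 15 months (Lgi2 and Cds1; 3.97% of all genes), 2 at 2 months (Cds1 and Acsm5; 3.18%), 2 on average (the same pair; 3.26%) and 0 in the difference (3.72%). DESeq2 and limma voom called 0 of 5 in each.

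Within groups the 5 genes did not vary as a block. The Pearson correlation of their deviations from the group means over 14 libraries was 0.69 for Tenm2 with Acsm5 and between −0.35 and 0.33 for the other pairs. The 3 genes most like each in this respect differed from gene to gene. For Lgi2 they were Fosb (0.88), Pacsin1 (0.88) and Ern1 (0.87), and for Tenm2 they were Srp72 (0.95), Nhsl1 (0.95) and Klhl3 (0.93). For Prune2 they were Pfkp (0.98), Atf6 (0.97) and Ralgapa1 (0.97). For Cds1 they were Rilpl1 (0.88), Atf6b (0.87) and E430018J23Rik (0.83), and for Acsm5 they were Dglucy (0.94), Pdzrn4 (0.93) and Fbh1 (0.92). These are the highest of 11820 genes, the libraries share depth and length slope, and no test was made. The age differences of these genes varied in sign. Of the genes most like Lgi2, Pacsin1, a gene of membrane trafficking, had 2.02 in knockout and 1.91 in wild-type hearts, while Fosb, an immediate early gene, had −3.07 and −4.45. Of those most like Prune2, Atf6 had 0.36 and 0.42, Ralgapa1 had 0.36 and 0.40, and Pfkp had −0.31 and 0.09.

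Lgi2 and Tenm2 are best known from the nervous system, and the sums of the neural marker lists did not separate the ages. The 10 neuronal markers summed to 6.33 to 13.3 CPM in knockout and 6.07 to 10.2 CPM in wild-type hearts at 15 months, and to 9.10 to 11.97 CPM in knockout and 9.16 to 13.3 CPM in wild-type hearts at 2 months. Among them Th, tyrosine hydroxylase, was at 0 in all libraries of 3 of the 4 groups. The 7 Schwann cell markers summed to 11.1 to 23.4 CPM in knockout and 14.1 to 23.5 CPM in wild-type hearts at 15 months, and to 11.97 to 15.1 CPM in knockout and 12.8 to 29.2 CPM in wild-type hearts at 2 months. The sums of both lists overlapped between the ages. Only 3 of the neuronal markers were measured well enough to test, and they went in different directions. Dbh, an enzyme of noradrenaline synthesis, fell with age in wild-type hearts (log2 fold change −2.45, adjusted p = 0.00761 by edgeR) and had −1.10 in knockout hearts. Stmn2 had 0.97 in knockout and 0.44 in wild-type hearts, and Tubb3 had 1.08 and 0.48, and neither passed. No Schwann cell marker passed in either genotype. The 5 liver markers, listed because Acsm5 is a gene of liver, summed to 0.0841 to 1.94 CPM in knockout and 0.610 to 1.99 CPM in wild-type hearts at 15 months. At 2 months they summed to 0.177 to 0.323 CPM in knockout and 0.116 to 5.39 CPM in wild-type hearts. The sums were thus below every Acsm5 level in the old hearts but not in all young ones. In young wild-type hearts Alb, Apoa1, Apob and Serpina1c were at 0 in all libraries, so the sums there were Cyp2e1 alone. The 4 lung markers were at or near 0. Among the other lists, the 8 macrophage markers summed in knockout hearts to 192 to 258 CPM at 15 months and 238 to 330 CPM at 2 months, which overlap. In wild-type hearts they summed to 178 to 304 CPM at 15 months and 366 to 427 CPM at 2 months, with no overlap. Of these 8 markers, 3 had log2 fold changes below 0 in knockout and 7 in wild-type hearts, and 0 passed in either by edgeR. At an unadjusted p below 0.05 there were 2 and 4, against 26.7% and 23.8% of all genes. The 7 endothelial markers spread from 381 to 1420 CPM in old knockout hearts, against 410 to 478 CPM in young ones. In wild-type hearts they summed to 418 to 643 CPM at 15 months and 379 to 447 CPM at 2 months. Of these 7 markers, 6 had log2 fold changes above 0 in each genotype, and 0 passed in either by edgeR. An unadjusted p below 0.05 was reached by 5 in knockout and 1 in wild-type hearts, against 26.7% and 23.8% of all genes. The part of these cell types in the values of the 5 genes was not tested.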

How the data were processed

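RNA was sequenced from 14 whole hearts with a stranded, ribosome-depleting kit for total RNA, per the labels' protocols. The authors deposited a table of counts per Ensembl gene, with no normalization. Per the submitters' processing notes, GRCm38 was the genome build, and the tools were STAR 2.7.3a, featureCounts 1.6.3, cutadapt 1.16 and DESeq2 1.26.0. How strand, multimapping and overlapping features were handled, and with which annotation release, is not given in the sources used here, so overlapping genes could share reads. GENCODE M21 held 55141 of the 55487 identifiers and gave symbols, coordinates and exon lengths. Promoter sequences are from RefSeq.

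Tests used edgeR 4.0.16 under R 4.3.3: filterByExpr on group (count 10, total 15), TMM scaling, 1 mean per group over all 14 libraries, robust quasi-likelihood F-tests, and Benjamini-Hochberg adjustment over 15528 genes at 0.05. The SE is the size of the log2 fold change divided by the square root of F, and intervals cover 95% without adjustment. CPM per kilobase, for levels between genes, divides by annotated exon length. Likeness is the Pearson correlation of log2 CPM (prior count 2) after subtracting group means, over protein-coding genes with a mean CPM of at least 1. Counting limits cover counting error only, since reads carry no molecular identifiers. No library repeated another: the chi-square per degree of freedom was at least 17.9 over all pairs.

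The genes and lists were chosen with earlier results of these data known. Named were the 5 genes, their closest paralogs, list members past the age test, tested neighbours within 100 kb and the 3 most alike genes. Further genes of the lists were named after their values were seen: Adam23, the latrophilins, Unc5a, Unc5b, Gpam, Ptpmt1, Crls1 and Acsl1. Alternatives were RLE size factors, no filter or a mean CPM of 1, DESeq2 1.42.0, limma 3.58.1 voom, only the groups compared, a replicate block, no mitochondrially encoded genes, the length slope, Ciart or Myl7 as covariates, 2-month libraries numbered 3 alone or left out, a threshold of 0.1, and leaving out each library. Whether replicate numbers pair the samples is not stated in the labels and was not settled by these data.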

Additional observations from a re-analysis of the deposited data

Results flagged for a closer look

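Among 26 genes and measures, 52 groups of 4 old hearts were examined for a library far from the others of its group, and 4 stood out. Chance alone would single out about 5% of such groups. Tenm2 stood at 5.94 CPM in knockout replicate 2 at 15 months, against 0.753 to 1.599 CPM in the other old knockout hearts. The same library had the highest Sqstm1 of the old knockout hearts, 37.0 CPM against 14.6 to 17.6 CPM, still far below the wild-type libraries. Acsl6 stood at 25.4 CPM in wild-type replicate 3 at 15 months, against 18.2 to 19.3 CPM in the other old wild-type hearts. Myl7 stood at 58.1 CPM in knockout replicate 1 at 15 months, against 0.0421 to 0.482 CPM in the other old knockout hearts. That library also had the lowest length slope of its age and the lowest Prune2, Cds1 and Acsm5 of the old knockout hearts.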

How the results depend on the processing

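In every alternative 0 of the 5 genes passed in any genotype comparison. All age differences of the 5 kept their sign throughout, which is no support for them, since the genes were chosen for these rises. With the length slope as a covariate, the age difference in knockout hearts was 2.45 for Tenm2, 1.05 for Prune2 and 2.69 for Acsm5, and that of Prune2 in wild-type hearts 1.41; at 2 months knockout over wild type turned to 0.021 for Tenm2 and −0.0065 for Prune2. With the 2-month libraries numbered 3 alone, the age difference of Acsm5 in wild-type hearts was 3.01, the 2-month value −0.0051 for Lgi2 and −0.0057 for Prune2, and the difference between age changes −0.11 for Cds1; without those libraries the 2-month value of Tenm2 was 0.058. The cause was not tested.

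Leaving out 1 library gave these ranges. The age difference ran from 1.97 to 2.703 for Acsm5 in wild-type and from 2.57 to 4.35 for Tenm2 in knockout hearts. Knockout over wild type at 15 months ran from −0.37 to 0.15 for Prune2, −0.19 to 1.27 for Tenm2 and −0.28 to 0.0089 for Acsm5. At 2 months it ran from −0.035 to 0.66 for Lgi2, −0.80 to 0.73 for Tenm2 and −0.10 to 0.16 for Prune2. On average it ran from −0.16 to 0.093 for Prune2 and −0.11 to 0.78 for Tenm2. The difference between age changes ran from −0.41 to 0.10 for Prune2 and −0.16 to 1.63 for Tenm2. Numbers of list genes that passed with age in knockout hearts ran from 0 to 2 for Lgi genes and partners, 0 to 3 for teneurins and partners, 0 to 1 for Prune2 relatives, 0 to 10 for the CDP-diacylglycerol pathway and 0 to 5 for acyl-CoA synthetases. In wild-type hearts they ran from 0 to 1 for Lgi genes and partners and 0 to 3 for acyl-CoA synthetases. The share of all genes that passed with age ran from 0.322% to 22.7% in knockout and from 0.245% to 5.12% in wild-type hearts.

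In knockout hearts the number of Lgi genes and partners that passed was 2 with no filter, DESeq2 or a threshold of 0.1. Teneurins and partners numbered 2 with DESeq2 or a threshold of 0.1. Genes of the CDP-diacylglycerol pathway numbered 1 with no filter, limma voom, only the groups compared or Myl7 as a covariate, 2 with DESeq2 and 5 with a threshold of 0.1. Acyl-CoA synthetases numbered 2 with no filter, DESeq2 or a threshold of 0.1, and 0 with the length slope or with the 2-month libraries numbered 3 alone or left out. In wild-type hearts the number of Lgi genes and partners was 0 with only the groups compared, the replicate block, the length slope, Ciart or Myl7 as covariates, and the 2-month libraries numbered 3 alone or left out. Acyl-CoA synthetases numbered 2 with no filter, 3 with DESeq2 or a threshold of 0.1, and 0 with only the groups compared, the replicate block and the libraries numbered 3 alone or left out. Of all genes, 1.53% passed in knockout and 0.749% in wild-type hearts with no filter, and 10.4% and 7.08% with DESeq2.

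Same-numbered libraries had correlations of deviations between −0.44 and 0.32, and 6 of 13 pairs had their own number as the best match. Some such matches arise by chance, so this does not settle whether the numbers pair the samples. At 2 months the wild-type library numbered 3 was the best match of the knockout library numbered 3, with a correlation of 0.31. Both had the high Ciart. The replicate block left 0 of the 5 genes past the test in each genotype comparison. Under it the adjusted p in wild-type hearts was 0.115 for Adam22 and 0.0513 for Acss3. Depth limits Tenm2 most, with 13 and 14 counts in young knockout and wild-type hearts.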
